A study of Mus musculus with 3 samples.

Results

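The Serpin protease inhibitor genes were followed in single-cell RNA profiles of mouse liver. Members were taken by symbol, as every feature named Serpin followed by a clade letter, without Serping1 and without pseudogenes marked -ps, which gave 61 of 32285 features. Of these, 23 members had no UMI (unique molecular identifier, the count of 1 captured transcript) in any kept barcode, 38 had at least 1, and 25 had at least 20 in the barcodes called hepatocyte-like. Another 8 had fewer there and 28 had none, and no value is given for the 34 that stayed under 20 UMIs in every class. The members lie mostly in gene clusters, with 23 on chromosome 12, 16 on chromosome 13 and 13 on chromosome 1 of mm10.

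Most serpins are secreted or cytosolic inhibitors of serine proteases. A serpin offers the protease an exposed reactive centre loop as bait, and once the loop is cleaved the serpin folds over and traps the enzyme. The hepatocyte is the main source of the serpins of blood plasma: antitrypsin (the Serpina1 genes), antichymotrypsin (Serpina3), antithrombin (Serpinc1), heparin cofactor II (Serpind1) and antiplasmin (Serpinf2). A few members do not inhibit proteases and carry hormones instead (Serpina6, Serpina7) or fold collagen (Serpinh1), and cytosolic clade B members protect leukocytes from their own granule proteases.

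The 3 libraries came from livers of male C57BL/6 mice, 9 weeks old. All animals were Ifih1-/- (without MDA5, a sensor of double-stranded RNA) and Alb-Cre+, with Cre under the albumin promoter of hepatocytes. They differed in Adar1, the gene of an RNA-editing enzyme, as Adar1wt/wt, Adar1wt/flox and Adar1flox/flox. Each genotype is 1 library. Differences between libraries therefore carry no replicate error, no test can be made, and the intervals in parentheses cover counting error only, at 95%. How many mice gave a library is not given in the sources used here.

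Each library held 10000 barcodes and between 9744380 and 10756790 UMIs, and kept barcodes had medians of 853 to 932 UMIs. Below, a genotype stands for the library so labelled, and 3 values in a row follow the order of genotype (wt/wt, then wt/flox, then flox/flox). Hepatocyte-like barcodes numbered 8354, 7532 and 7925 in order of genotype. Adar itself stood at 10.4, 17.1 and 35.1 CPM (UMIs of the gene per 1000000 UMIs of the class) in them, which goes against the label of the last library. The position of the floxed exons is not in the labels, and tags from the transcript's end can miss a deletion elsewhere, so this level is no check of the genotype. Every direction below rests on the labels. Hepatocyte transcripts were in all classes: summed over 12 hepatocyte markers, 9 other classes reached 0.358 to 0.753 of the hepatocyte-like CPM (the erythroid cell-like class, with 6 barcodes in 1 library, was left out). Hepatocytes and droplets with free hepatocyte RNA cannot be told apart among the hepatocyte-like barcodes.

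The antitrypsin genes Serpina1a to Serpina1e are copies in a row on the minus strand of chromosome 12. They are shown first because they hold most Serpin UMIs of the hepatocyte-like barcodes. Stretches near their starts are nearly the same in sequence. The following stretches of 96 bases come from RefSeq promoters (GRCm38.p6, minus strand), 5′ to 3′, lined up without gaps, with capitals at the 10 positions that vary among the 5 genes.
Serpina1a, chr12:103863625-103863720: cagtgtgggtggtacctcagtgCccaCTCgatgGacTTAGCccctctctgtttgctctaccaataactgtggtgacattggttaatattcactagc
Serpina1b, chr12:103738200-103738295: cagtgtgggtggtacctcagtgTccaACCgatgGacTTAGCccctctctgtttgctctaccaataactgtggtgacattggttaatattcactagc
Serpina1c, chr12:103904962-103905057: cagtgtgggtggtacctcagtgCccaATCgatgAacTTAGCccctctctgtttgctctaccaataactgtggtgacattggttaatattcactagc
Serpina1d, chr12:103773634-103773729: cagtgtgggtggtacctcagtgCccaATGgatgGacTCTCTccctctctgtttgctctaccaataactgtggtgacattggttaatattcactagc
Serpina1e, chr12:103956960-103957055: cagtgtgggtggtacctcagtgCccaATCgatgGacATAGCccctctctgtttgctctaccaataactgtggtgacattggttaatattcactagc

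Over the 10 pairs of these stretches 2 to 7 bases differed, so that 92.7% to 97.9% were the same.

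The same genes part where the protease is bound. The coding bases of the reactive centre loop, read from GENCODE M21 transcripts, are shown because they set the target of each copy. Of 57 bases, 13 varied among the 5 genes, and those are in capitals, 5′ to 3′.
Serpina1a: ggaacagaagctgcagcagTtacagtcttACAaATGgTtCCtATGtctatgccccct
Serpina1b: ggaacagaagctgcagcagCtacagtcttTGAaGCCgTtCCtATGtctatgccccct
Serpina1c: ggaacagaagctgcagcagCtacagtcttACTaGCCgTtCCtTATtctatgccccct
Serpina1d: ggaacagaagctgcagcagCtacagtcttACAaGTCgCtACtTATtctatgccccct
Serpina1e: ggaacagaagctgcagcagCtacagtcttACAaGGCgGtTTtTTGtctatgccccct

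Against Serpina1a, the loop differed at 6 bases in Serpina1b and at 8 in each of Serpina1c, Serpina1d and Serpina1e. Since the libraries read transcript ends, the last 400 bases of each transcript were also compared. Of all 90-base windows there, the share found in another member was 2.57% for Serpina1a, 4.82% for Serpina1b, 7.72% for Serpina1c, 9.97% for Serpina1d and 0 for Serpina1e. Whether tags from such shared windows were left out of the counts or given to a copy was not tested. Counts of the first 4 genes are therefore uncertain, and so is their sum if such tags were left out. The annotated span of Serpina1b also contains that of Serpina1d on the same strand, which adds to the uncertainty of both counts.

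Antitrypsin transcripts were lower with the label flox/flox than with wt/wt for each of the 5 genes, and the library labelled wt/flox lay between them. Summed, they made up 2.65%, 1.87% and 1.47% of all UMIs of hepatocyte-like barcodes in order of genotype. The log2 ratio of the sum was -0.85 (-0.86 to -0.84) for flox/flox over wt/wt. It was -0.35 (-0.36 to -0.33) for flox/flox over wt/flox and -0.50 (-0.51 to -0.49) for wt/flox over wt/wt.

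Serpina1e (ENSMUSG00000072849, chr12:103946931-103958975) was the most abundant copy, with 10598 CPM (10527 to 10670), 6818 (6758 to 6877) and 5027 (4979 to 5075) in order of genotype. Its log2 ratio for flox/flox over wt/wt was -1.08 (-1.09 to -1.06), the lowest among the copies. Serpina1b (ENSMUSG00000071178) stood at 4365, 2868 and 2226 CPM in the same order of labels, with a ratio of -0.97 (-0.998 to -0.946). Both copies also passed 1.5-fold between wt/flox and wt/wt, with -0.64 (-0.65 to -0.62) and -0.61 (-0.63 to -0.58).

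Serpina1a (ENSMUSG00000066366) had 3880, 2666 and 2214 CPM and a ratio of -0.81 (-0.84 to -0.78) for flox/flox over wt/wt. Serpina1d (ENSMUSG00000071177), the least abundant copy, had 1680.3, 1305 and 960.05 CPM and the ratio -0.81 (-0.85 to -0.77). Serpina1c (ENSMUSG00000079015) was nearest to even, with 5954, 5040 and 4287 CPM and -0.47 (-0.49 to -0.45), under 1.5-fold. Its share of the UMIs of the 5 copies was 22.5% for wt/wt and 29.1% for flox/flox, while that of Serpina1e was 40.0% and 34.2%.

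The antichymotrypsin-like gene Serpina3k (ENSMUSG00000058207, chr12:104338486-104346144), which encodes an abundant plasma inhibitor, went the other way. It stood at 5980 CPM (5926 to 6034), 7365 (7303 to 7427) and 9425 (9359 to 9491) in order of genotype. The log2 ratio was 0.66 (0.64 to 0.67) for flox/flox over wt/wt, 0.36 (0.34 to 0.37) for flox/flox over wt/flox and 0.30 (0.28 to 0.32) for wt/flox over wt/wt. For each UMI of Serpina3k, the 5 antitrypsin genes together had 4.43, 2.54 and 1.56 UMIs in order of genotype.

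Serpina3m and Serpina3n, its neighbours of the antichymotrypsin group, were lowest in the library labelled wt/flox. Serpina3m (ENSMUSG00000079012) had 115 CPM, 85.9 and 160.03 in order of genotype, with log2 ratios of 0.47 (0.35 to 0.60) for flox/flox over wt/wt and 0.90 (0.76 to 1.04) for flox/flox over wt/flox. Serpina3n (ENSMUSG00000021091), known as an acute phase gene, had 165, 135 and 206 CPM, with 0.32 (0.22 to 0.42) and 0.61 (0.50 to 0.72) for the same pairs. With barcodes of at least 1000 UMIs these were 0.13 (-0.03 to 0.29) and 0.53 (0.35 to 0.70), so that the second was under 1.5-fold. The annotated spans of Serpina3k and Serpina3m overlap on the same strand, so that the counts of Serpina3m, the less abundant of them, are uncertain.

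Serpina12 (vaspin, an adipokine and protease inhibitor; ENSMUSG00000041567, chr12:104028769-104044443) was far higher in both libraries with a floxed allele. Its level was 99.8 CPM (93.0 to 107), 270.1 (258 to 282) and 366 (353 to 380) in order of genotype. The log2 ratio for flox/flox over wt/wt was 1.88 (1.76 to 1.99), made up of 1.44 (1.32 to 1.56) for wt/flox over wt/wt and 0.44 (0.36 to 0.52) for flox/flox over wt/flox. A UMI of Serpina12 was in 8.80%, 22.3% and 29.0% of hepatocyte-like barcodes. After barcodes were thinned to 1000 UMIs each, which left out 5961, 5164 and 4976 shallower ones, the shares were 9.28% (8.14 to 10.5), 21.8% (20.1 to 23.5) and 29.9% (28.3 to 31.6, Clopper-Pearson). T or NK cell-like barcodes, which should lack the gene, had it in 5.90%, 19.2% and 20.3%, at median depths of 974, 964.5 and 966.5 UMIs against 825, 863 and 904 in hepatocyte-like barcodes. The step between wt/wt and the other 2 libraries is thus in both classes.

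**Figure D1:**
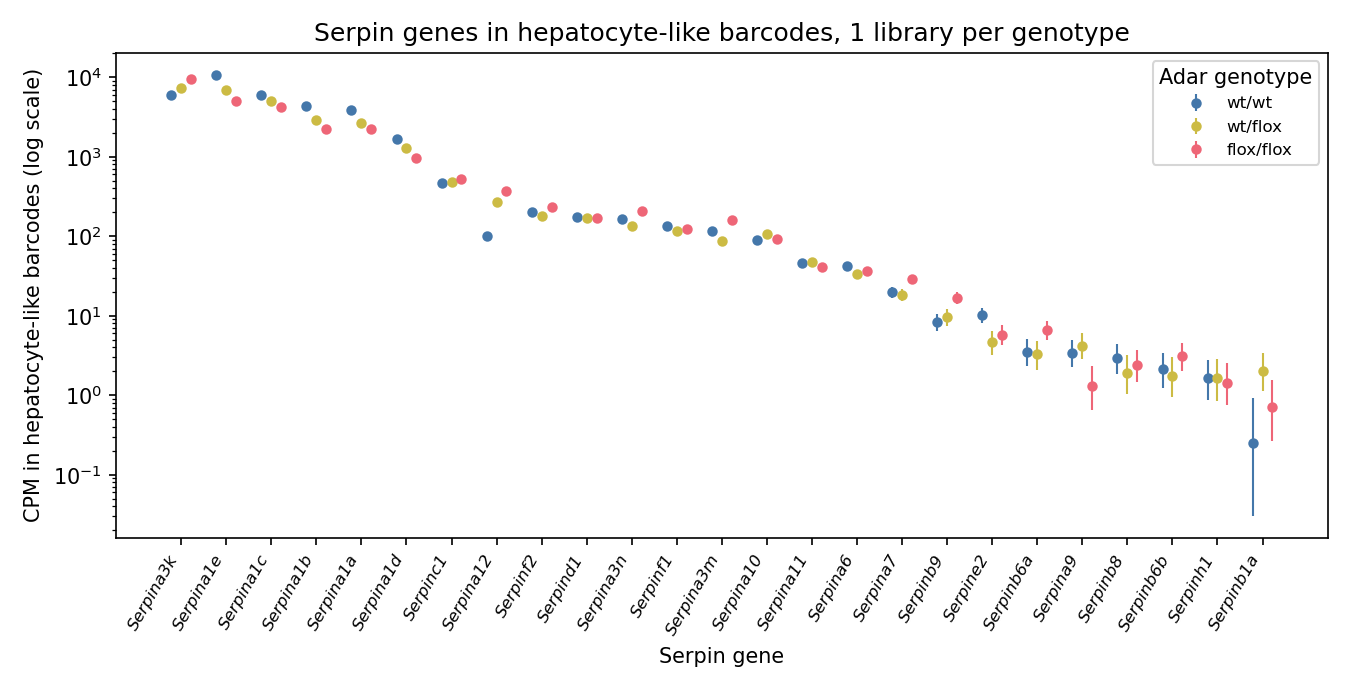
CPM of the 25 Serpin genes with at least 20 UMIs in hepatocyte-like barcodes (log axis), in each of the 3 libraries, with exact Poisson 95% intervals for counting error. The 5 Serpina1 genes step down from wt/wt to flox/flox (Serpina1e from 10598 to 5027 CPM), while Serpina3k and Serpina12 step up.

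The inhibitors of clotting and of clot lysis lay closer together. Serpinc1 (antithrombin, the main inhibitor of thrombin; ENSMUSG00000026715) had 468, 485 and 524 CPM in order of genotype, and a log2 ratio of 0.16 (0.10 to 0.23) for flox/flox over wt/wt. Serpind1 (heparin cofactor II; ENSMUSG00000022766) had 176, 169 and 169 CPM and -0.07 (-0.17 to 0.04). Serpinf2 (antiplasmin, which slows the breakdown of clots; ENSMUSG00000038224) had 204, 178 and 235 CPM and 0.20 (0.11 to 0.30). None of these 3 genes reached 1.5-fold in any pair of libraries over all hepatocyte-like barcodes.

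Serpina10, which inhibits coagulation factor X together with protein Z, had 90.6, 106 and 92.6 CPM and a ratio of 0.03 (-0.12 to 0.18) for flox/flox over wt/wt. Serpinf1 (PEDF, a secreted serpin that holds back vessel growth; ENSMUSG00000000753) had 135, 116 and 125 CPM and -0.11 (-0.24 to 0.01). Serpina11, a secreted member, had 45.6, 46.8 and 41.4 CPM and -0.14 (-0.36 to 0.08).

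The deepest hepatocyte-like barcodes, those of at least 2000 UMIs, gave larger ratios for several of these genes. They numbered 119, 106 and 369 in order of genotype. There the ratio of flox/flox over wt/wt was 0.80 (0.45 to 1.17) for Serpinc1, 1.07 (0.50 to 1.69) for Serpinf2 and 0.70 (0.14 to 1.31) for Serpind1, where the median over all genes was 0.14. For Serpina10 it was 0.79 (-0.01 to 1.70), with an interval that included 0. The antitrypsin ratios were also farther from 0 there, from -0.92 for Serpina1c (-0.99 to -0.85) to -1.55 for Serpina1e (-1.60 to -1.49). Serpina3k reached 1.34 (1.24 to 1.44) and Serpina12 2.11 (1.62 to 2.64). Serpinc1 had 242, 355 and 422 CPM there in order of genotype, and Serpinf2 91.1, 100 and 192. Serpind1 had 97.4, 104 and 158 CPM and Serpina3k 3019, 4779 and 7646. Each of these was below its level over all hepatocyte-like barcodes in every library, most so for wt/wt. Serpina1e had 16162, 8849 and 5522 CPM and Serpina12 113, 347 and 489, above their levels over all hepatocyte-like barcodes.

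The carriers of hormones stood at lower levels. Serpina6 (corticosteroid-binding globulin) had 42.0, 33.4 and 36.8 CPM and a log2 ratio of -0.19 (-0.42 to 0.04) for flox/flox over wt/wt. In barcodes of at least 2000 UMIs this turned to 1.49 (0.01 to 3.44), on 4, 7 and 35 UMIs or 12.6, 27.0 and 35.3 CPM. Serpina7 (thyroxine-binding globulin, on the X chromosome; ENSMUSG00000031271) had 19.8 CPM (16.8 to 23.2), 18.5 (15.5 to 21.9) and 29.0 (25.5 to 32.9) in order of genotype. Its ratio was 0.55 (0.26 to 0.85) for flox/flox over wt/wt, under 1.5-fold, and 0.65 (0.34 to 0.97) for flox/flox over wt/flox. In the deepest barcodes these were 1.70 (0.65 to 2.96) and 2.82 (1.22 to 5.13), on 8, 3 and 81 UMIs.

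Members with few UMIs made up the rest. Serpinb9, a cytosolic inhibitor of granzyme B, had 66, 70 and 139 UMIs or 8.33, 9.51 and 16.7 CPM in order of genotype, and a ratio of 1.00 (0.57 to 1.45) for flox/flox over wt/wt. Serpinb6a, another cytosolic inhibitor, had 28, 24 and 55 UMIs or 3.53, 3.26 and 6.60 CPM and a ratio of 0.90 (0.22 to 1.61). Serpine2 (protease nexin 1, an inhibitor of thrombin and plasminogen activators) had 80, 34 and 48 UMIs or 10.1, 4.62 and 5.76 CPM. It was highest for wt/wt, with ratios of -0.81 (-1.36 to -0.28) for flox/flox over wt/wt and -1.13 (-1.75 to -0.53) for wt/flox over wt/wt. With barcodes of at least 1000 UMIs the first was -0.54 (-1.26 to 0.17), under 1.5-fold and with an interval that included 0.

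Serpina9, known from germinal centre B cells, had 27, 31 and 11 UMIs or 3.41, 4.21 and 1.32 CPM and a ratio of -1.37 (-2.53 to -0.31) for flox/flox over wt/wt. Serpinb1a, which inhibits neutrophil proteases, had 2, 15 and 6 UMIs or 0.252, 2.04 and 0.720 CPM. The library labelled wt/flox was highest, with a ratio of 2.43 (0.91 to 6.19) over wt/wt, where the 2 UMIs of wt/wt were set to a floor of 3. For Serpinb1a and for Serpinb6b, Serpinb8 and Serpinh1, with 17, 13 and 26, with 23, 14 and 20 and with 13, 12 and 12 UMIs, the interval for flox/flox over wt/wt included 0. Summed over 7 genes, neutrophil markers in these barcodes reached 11.4, 38.7 and 9.84 CPM, with 1 of the 7 at 0. The 7 B cell markers summed to 10.5, 16.0 and 11.9 CPM and the 10 Kupffer cell markers to 28.8, 23.1 and 38.9, with none at 0. Of other marker sets, 10 for monocytes or macrophages (1 at 0) summed to 10.7, 16.6 and 24.8 CPM, 7 for plasmacytoid dendritic cells (none at 0) to 213, 301 and 407, and 7 for bile duct cells (3 at 0) to 12.2, 39.4 and 69.2. Most of the plasmacytoid sum was Bst2, which is also among the interferon-induced genes below, with 187, 265 and 357 CPM. The 10 T cell markers summed to 2.65, 2.99 and 2.76 CPM and the 8 of NK cells or ILC1 to 1.39, 2.04 and 1.80. For the 10 sinusoidal endothelial markers the sums were 33.8, 47.8 and 37.8 CPM. Stellate cell or fibroblast markers (10) summed to 47.2, 45.3 and 29.9 CPM and erythroid markers (6, with 1 at 0) to 99.6, 193 and 49.9. The order of the libraries thus differed between marker sets. The part of these sets in the low counts of Serpinb1a, Serpina9, Serpinb6a and Serpinb9 was not tested.

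Of the 25 measured members, 5 were at least 1.5-fold higher for flox/flox than for wt/wt (Serpina12, Serpina3k, Serpinb1a, Serpinb9 and Serpinb6a), where 14.3% of all 11479 measured genes were. A further 6 were at least 1.5-fold lower (Serpine2, Serpina1a, Serpina1b, Serpina1d, Serpina1e and Serpina9), against 7.61% of all genes. The median log2 ratio was -0.07 over the members and 0.08 over all genes. For flox/flox against wt/flox, 6 members were higher (Serpina3m, Serpina3n, Serpinb6b, Serpinb9, Serpinb6a and Serpina7), against 12.9% of all genes, and 2 were lower (Serpina9 and Serpinb1a), against 10.2%, with medians of 0.11 and 0.03. For wt/flox against wt/wt, 2 members were higher (Serpina12 and Serpinb1a), against 10.7%, and 4 were lower (Serpine2, Serpinb8, Serpina1b and Serpina1e), against 6.76%, with medians of -0.20 and 0.04. Some of these counted members had intervals that included 0. They were Serpinb6b for flox/flox over wt/flox (-0.19 to 1.90) and Serpinb8 for wt/flox over wt/wt (-1.68 to 0.41). Serpinb1a for flox/flox over wt/wt (-0.97 to 4.85) was another. The 3 comparisons share libraries, and none supports another.

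Ordered by genotype label, 7 members were lower at each step: the 5 antitrypsin genes, and Serpind1 and Serpinh1 by less than counting error. At each step 4 were higher (Serpinc1, Serpina12, Serpina3k and Serpinb9), with Serpinc1 and Serpinb9 apart by less than counting error between wt/wt and wt/flox. Of all genes, 14.7% were lower and 22.5% were higher at each step. All members together made up 3.41%, 2.77% and 2.62% of hepatocyte-like UMIs in order of genotype.

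**Figure D2:**
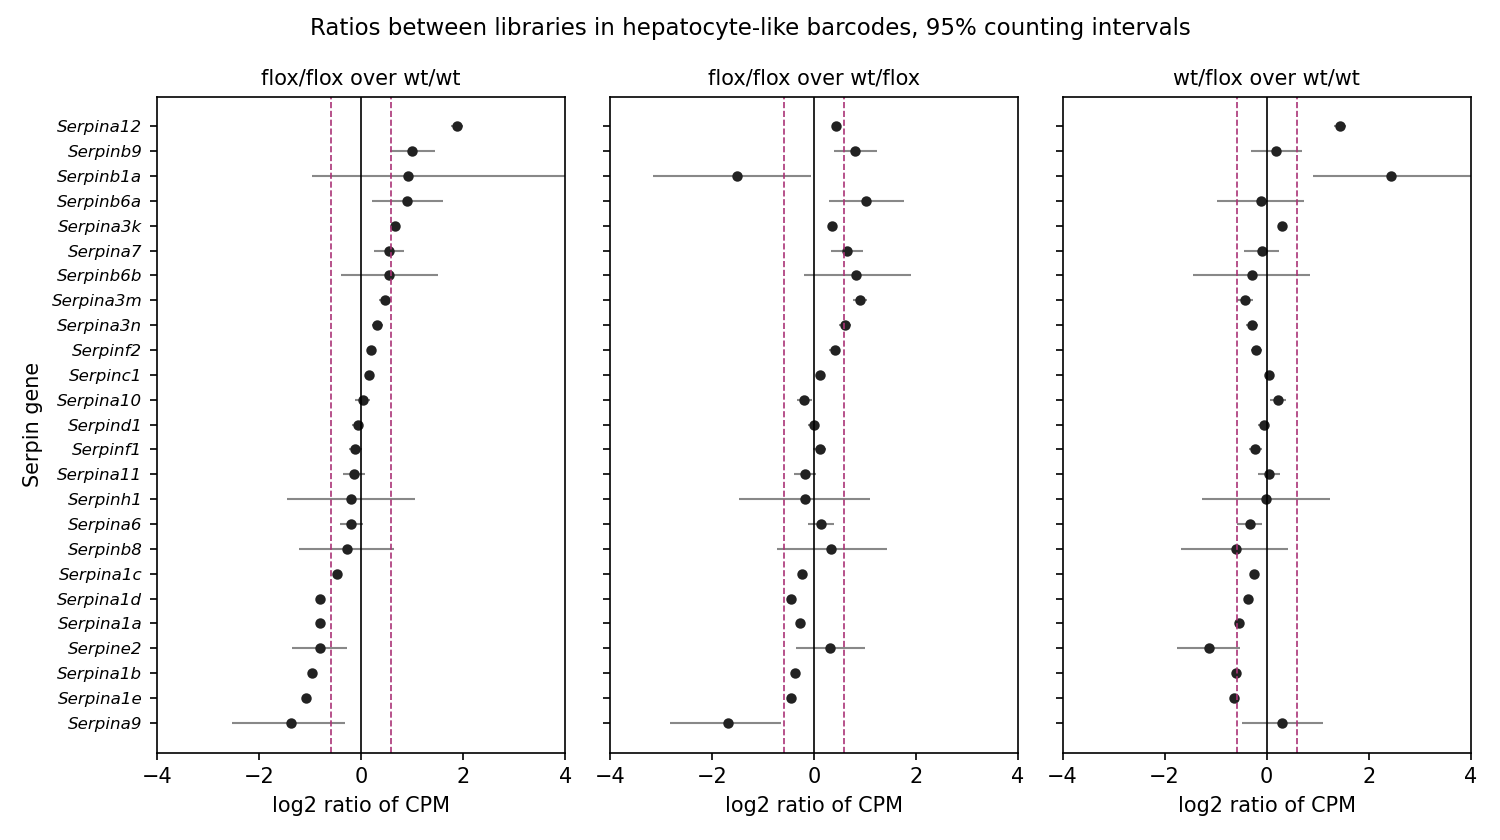
Log2 ratios of CPM between libraries for the 25 members in hepatocyte-like barcodes (points) with exact 95% counting intervals (grey bars, cut off at the axis limits), for the 3 pairs of labels. Dashed lines mark 1.5-fold. Serpina12 stands at 1.88 in the first panel and Serpina1e at -1.08.

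The libraries filled the hepatocyte-like clusters unequally. Of 8 such clusters, 5 had at least 50 barcodes in each library and were compared. Cluster 0 had 2954, 779 and 2019 barcodes in order of genotype, cluster 2 had 1595, 4087 and 838, and cluster 3 had 1835, 1622 and 3683. Each antitrypsin gene had a negative log2 ratio of flox/flox over wt/wt in all 5 clusters, from -1.23 to -0.92 for Serpina1e and from -0.69 to -0.34 for Serpina1c. Serpina12 was higher in all 5, with 1.80 to 2.36.

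The ratio of Serpina3k varied by cluster. Its value of flox/flox over wt/wt was 0.72 (0.67 to 0.76) in cluster 2, 0.51 (0.48 to 0.53) in cluster 3 and 0.24 (0.20 to 0.27) in cluster 0, but 0.01 (-0.04 to 0.05) in cluster 4 and -0.10 (-0.20 to -0.01) in cluster 1. Its levels were highest in cluster 3, with 8753, 10317 and 12423 CPM in order of genotype, which had a median of 12.8% mitochondrial UMIs against 1.32% to 5.51% in the other 4. The part of the unequal filling in the ratio over all hepatocyte-like barcodes was not tested. Serpinc1, at 0.16 over all hepatocyte-like barcodes, ranged from -0.24 to 0.10 within clusters and was below 0 in 4 of the 5. Serpind1, at -0.07 over all of them, was below 0 in all 5, from -0.75 to -0.20. The interval of 1 of these 5 ratios of Serpinc1 excluded 0, and that of 4 of the 5 of Serpind1. Serpinb9 had positive ratios in all 5 clusters, from 0.26 to 2.11, and the intervals of 3 excluded 0. Serpina3n ranged from -0.62 to 0.51, and Serpina7, measured in 4 clusters, from -0.63 to 0.65, so that both signs occurred.

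**Figure D3:**
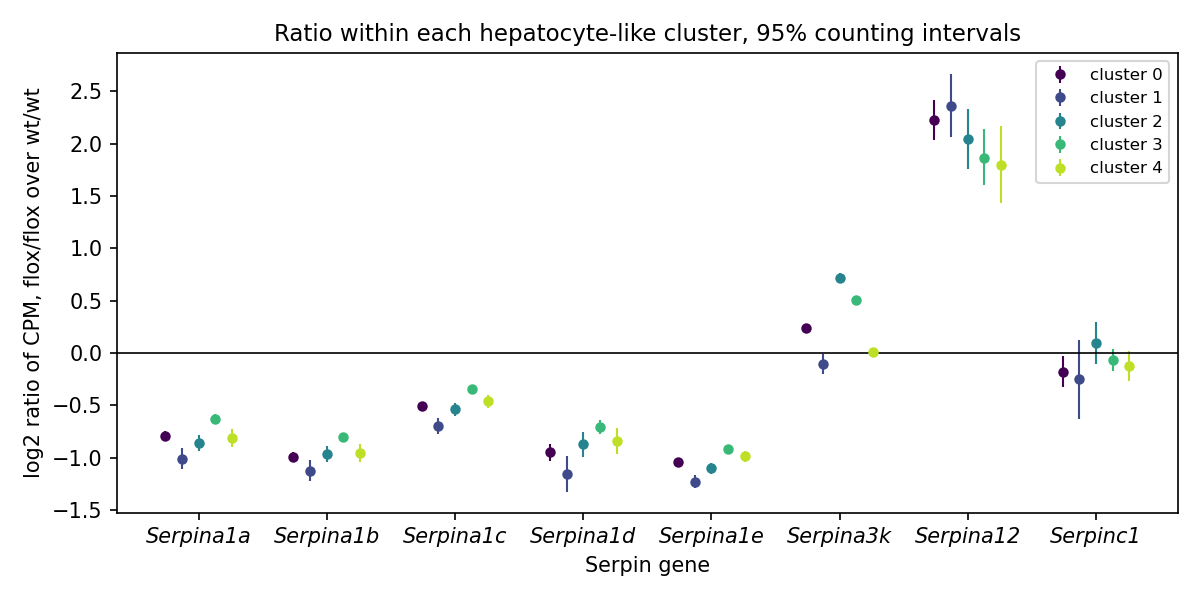
Log2 ratio of CPM for flox/flox over wt/wt within each of the 5 compared hepatocyte-like clusters, for the 5 Serpina1 genes, Serpina3k, Serpina12 and Serpinc1, with 95% counting intervals. The Serpina1 points lie below 0 and the Serpina12 points at 1.80 to 2.36, while Serpina3k spreads from -0.10 to 0.72.

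Antitrypsin UMIs were also found in every other class. In 9 classes and 3 libraries the 5 genes reached 0.464 to 0.847 of their hepatocyte-like CPM, with a median of 0.644, where the 12 hepatocyte markers had a median of 0.546. Serpina1e had a UMI in 100%, 98.9% and 92.2% of Kupffer cell-like barcodes in order of genotype, and in 99.96%, 99.5% and 97.8% of hepatocyte-like ones. Over these 9 classes the log2 ratio of flox/flox over wt/wt was -1.14 to -0.84 for the antitrypsin sum, 0.17 to 0.64 for Serpina3k and 1.16 to 2.59 for Serpina12. The directions were those of the hepatocyte-like barcodes, and RNA of the cell and free RNA cannot be told apart in these counts.

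The position of a hepatocyte in the liver lobule was approximated by a score per barcode, pericentral minus periportal UMIs over all UMIs, and the 1 in 3 barcodes with the highest and the 1 in 3 with the lowest score were compared within each library. The score is a range and no cell type, and 7000, 6608 and 6905 hepatocyte-like barcodes lay within 0.005 of a dividing value. At least 1.5-fold higher CPM on the pericentral side in all 3 libraries was found for 2 of 24 measured members, Serpina7 and Serpinh1, where 0.477% of 10892 genes were, and for 0 on the periportal side, against 0.909%. Serpina7 had 26.7 CPM on the pericentral and 14.5 on the periportal side for wt/wt, 31.9 and 10.6 for wt/flox, and 43.0 and 15.6 for flox/flox. Its log2 ratios were 0.88 (0.29 to 1.48), 1.59 (0.93 to 2.29) and 1.46 (0.95 to 2.01), above 0 in each library. Serpinh1 rested on 23 UMIs, with ratios of 0.77, 0.72 and 0.95 and intervals that included 0, and it passed in none of the 5 other settings tried.

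Serpina6, the other hormone carrier, lay on the same side with ratios of 0.51 (0.11 to 0.92), 0.51 (0.07 to 0.97) and 0.40 (-0.0016 to 0.82) in order of genotype. Serpind1 was lower on the pericentral side, with -0.10 (-0.29 to 0.08), -0.21 (-0.41 to -0.01) and -0.44 (-0.63 to -0.25). The antitrypsin genes were nearly even, from -0.08 (Serpina1e, wt/wt) to 0.10 (Serpina1d, flox/flox). Between libraries, Serpina7 for flox/flox over wt/wt was 0.69 (0.25 to 1.13) on the pericentral side and 0.10 (-0.57 to 0.77) on the periportal side. The difference between the sides was not tested.

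**Figure D4:**
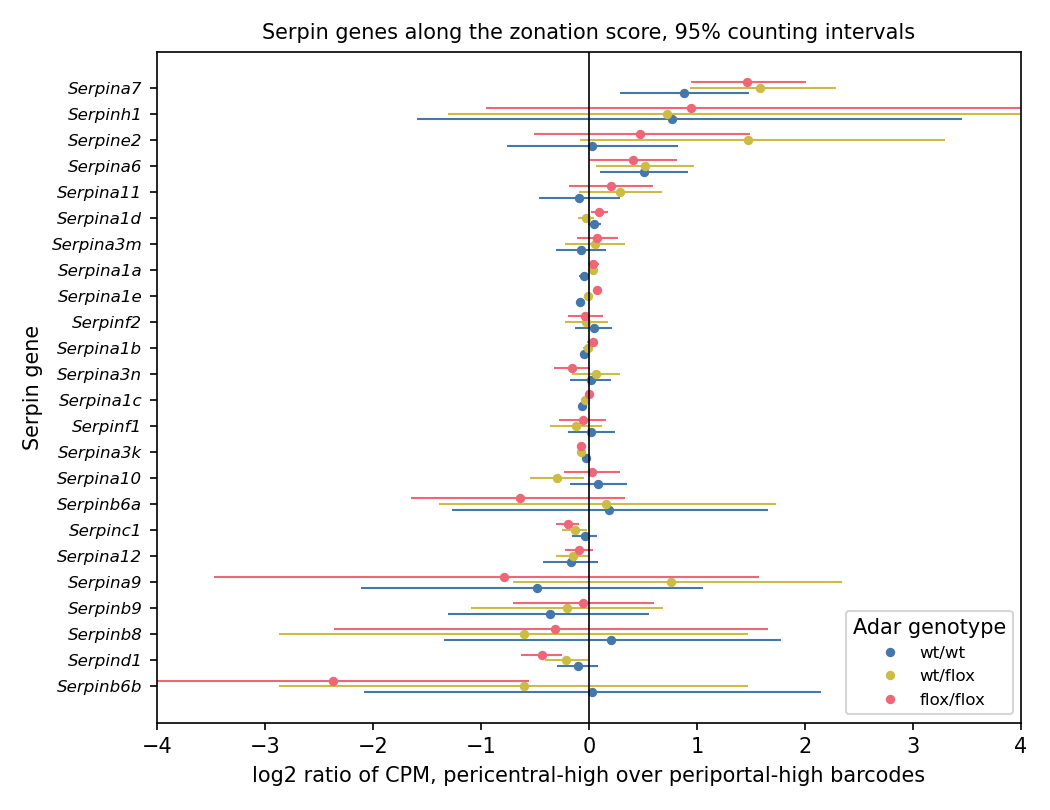
Log2 ratio of CPM between the pericentral-high and the periportal-high group of hepatocyte-like barcodes for 24 members, by library, with 95% counting intervals cut off at the axis limits. Serpina7 lies at 0.88 to 1.59 and Serpina6 at 0.40 to 0.51, while Serpina1a to Serpina1e lie near 0.

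Other classes of barcodes held members above their hepatocyte-like CPM, some of which hepatocyte-like barcodes nearly lacked. A member was counted for a class when it had at least 20 UMIs there and at least 2-fold the hepatocyte-like CPM in each library. Serpinh1 (HSP47, the collagen chaperone; ENSMUSG00000070436) stood at 469.6 CPM (338 to 635), 334 (191 to 542) and 357 (204 to 580) in order of genotype in stellate cell or fibroblast-like barcodes, 204 to 286 times the hepatocyte-like level. It was the 1 member of 8 measured in that class to pass, against 20.8% of all genes. Sinusoidal endothelial cell-like barcodes had it at 60.4, 96.0 and 60.9 CPM.

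Serpinb6a was highest in Kupffer cell-like barcodes, the resident macrophages, at 210 CPM (151 to 284), 249 (198 to 310) and 265 (211 to 329) in order of genotype. It was the 1 of 15 members to pass there, against 22.7% of all genes. Its log2 ratio for flox/flox over wt/wt was 0.34 (-0.22 to 0.91). In endothelial cell-like barcodes it had 74.3, 96.0 and 122 CPM and a ratio of 0.71 (-0.14 to 1.54).

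Serpina3g and Serpina3f, members of the mouse antichymotrypsin cluster known from lymphocytes and myeloid cells, were found in endothelial and lymphoid classes. Serpina3g (ENSMUSG00000041481) had 92.9, 93.8 and 122 CPM in endothelial cell-like barcodes, 55.0, 51.2 and 56.6 in T or NK cell-like barcodes and 46.4, 125 and 54.3 in conventional dendritic cell-like barcodes in order of genotype, and 17 UMIs over all hepatocyte-like barcodes. Serpina3f (ENSMUSG00000066363) had 62.7, 32.0 and 83.0 CPM in endothelial cell-like and 66.5, 30.3 and 41.3 in T or NK cell-like barcodes, and 12 UMIs over all hepatocyte-like ones. Both share a STAT-type motif near their starts, shown because these neighbours are read side by side here. Capitals mark the letters that match TTCNNNGAA, plus strand, RefSeq GRCm38.p6, 5′ to 3′.
Serpina3f, chr12:104214363-104214481: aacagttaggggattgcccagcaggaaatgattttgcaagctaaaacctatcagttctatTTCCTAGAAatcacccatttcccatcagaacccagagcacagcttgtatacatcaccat
Serpina3g, chr12:104236054-104236146: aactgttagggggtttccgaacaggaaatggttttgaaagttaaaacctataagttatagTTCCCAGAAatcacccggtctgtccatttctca

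The motif was searched on both strands in the 250 bases before each start. It was in 7.02% of all 32851 promoters and in 10 of 62 member starts, which belong to 53 matched members, and a match describes letters and shows no binding. The other members with the motif were Serpina11, Serpina1f, Serpina3i, Serpinb2, Serpinb6a and Serpinb9c. Not all of them shared these classes: Serpina1f and Serpinb9c had no UMI, and Serpina11 was below its hepatocyte-like CPM in endothelial and T or NK cell-like barcodes. In the endothelial class 4 of 21 measured members passed (Serpinh1, Serpina3f, Serpina3g and Serpinb6a), against 21.9% of all genes. In the T or NK class 5 of 22 did (Serpina3f, Serpina3g, Serpinb6b, Serpinb9 and Serpinb6a), against 14.2%. For Serpina3g the ratio of flox/flox over wt/wt was 0.39 (-0.43 to 1.17) in endothelial cell-like and 0.04 (-0.79 to 0.92) in T or NK cell-like barcodes, both with intervals that included 0.

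The granzyme B inhibitor Serpinb9 had 57.9 CPM (35.3 to 89.4), 30.3 (17.3 to 49.3) and 61.2 (43.7 to 83.3) in order of genotype in T or NK cell-like barcodes, 3.19 to 6.95 times the hepatocyte-like level. Serpinb6b, a relative of Serpinb6a, had 75.2, 34.1 and 50.5 CPM there. Both were lowest for wt/flox. For flox/flox over wt/flox the ratio was 1.01 (0.14 to 1.95) for Serpinb9 and 0.57 (-0.31 to 1.48) for Serpinb6b. For wt/flox over wt/wt it was -0.93 (-1.98 to 0.09) for Serpinb9 and -1.14 (-2.09 to -0.22) for Serpinb6b, so that each gene had 1 interval that excluded 0. In the library labelled wt/flox cluster 9 gave 466 of 522 T or NK cell-like barcodes, while cluster 8 gave 283 of 339 for wt/wt and 509 of 606 for flox/flox. The part of these clusters in the levels was not tested.

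Serpinb9 was also found in conventional dendritic cell-like barcodes, with 12, 5 and 8 UMIs in order of genotype. In that class 2 of 16 members passed, Serpina3g and Serpinb6b (the latter with 69.6, 58.9 and 45.2 CPM on 6, 8 and 15 UMIs), against 22.1% of all genes. Of 9 to 14 measured members, 0 passed in B cell-like, erythroid cell-like, monocyte or macrophage-like, neutrophil-like and plasmacytoid dendritic cell-like barcodes, against 10.8%, 0.862%, 17.5%, 11.2% and 18.7% of all genes.

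**Figure D5:**
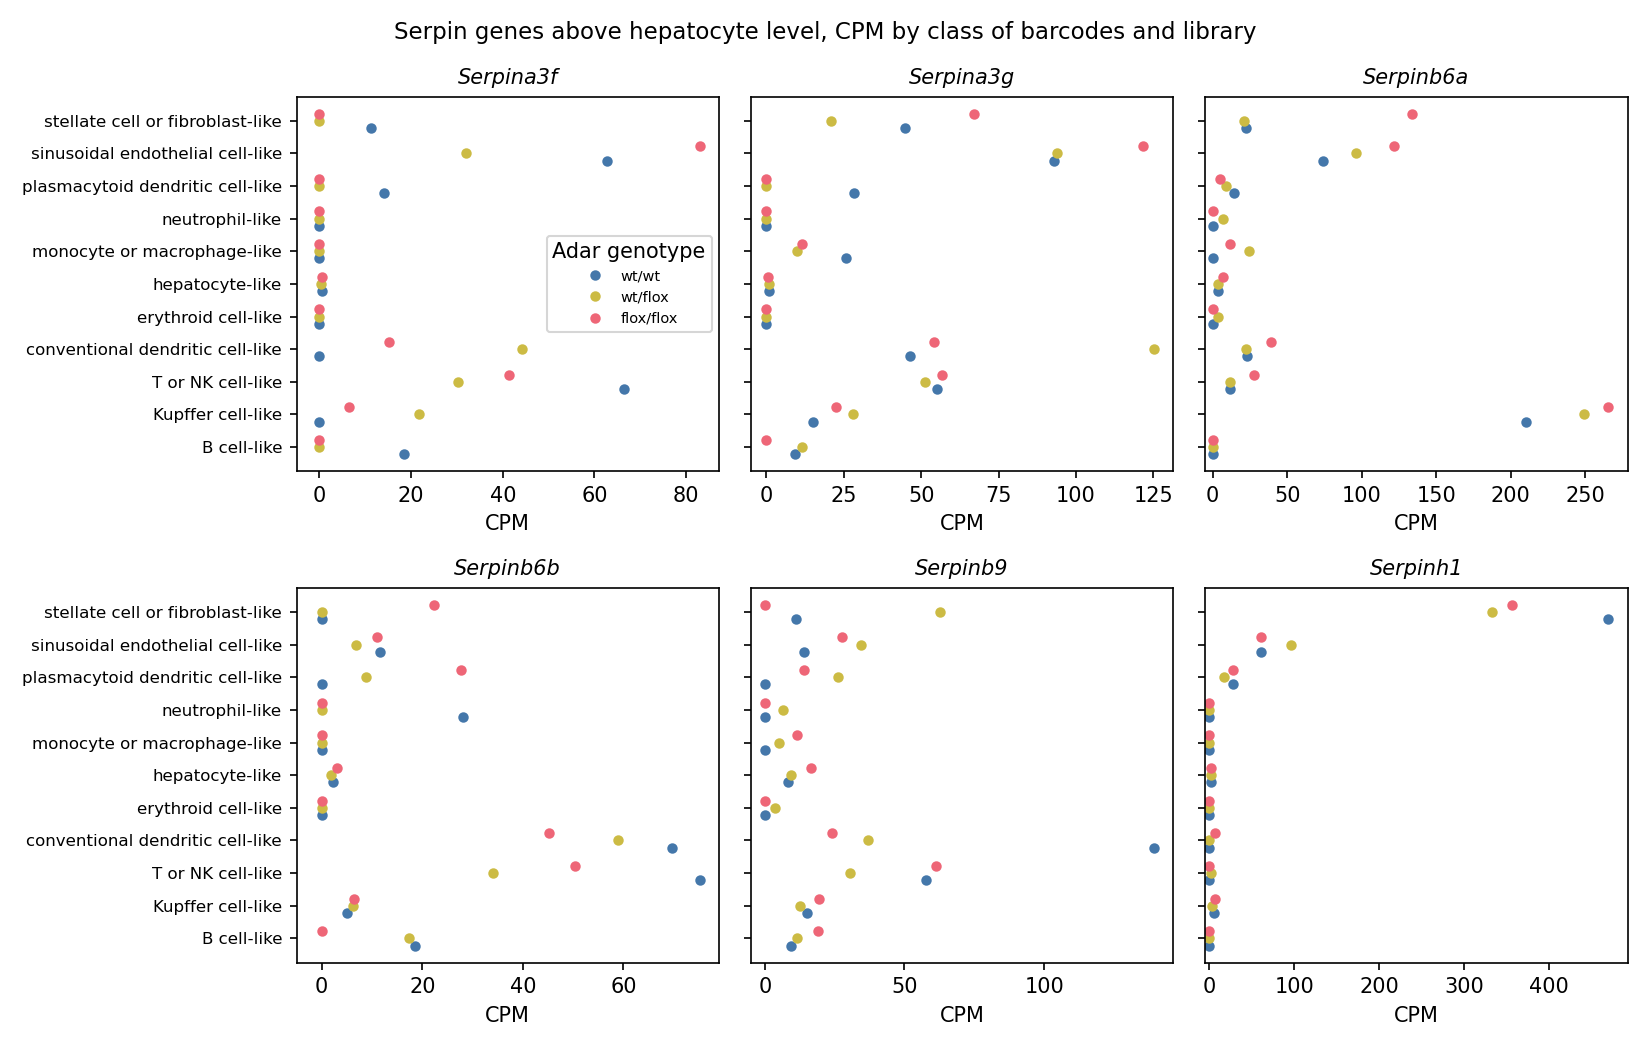
CPM of the 6 Serpin genes that passed in another class, by class of barcodes and library (1 point per library, linear axes that differ between panels). Serpinh1 stands at 334 to 469.6 CPM in the stellate cell or fibroblast-like class and Serpinb6a at 210 to 265 in the Kupffer cell-like class, both near 0 in hepatocyte-like barcodes.

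Genes of coagulation and fibrinolysis, among them proteases that plasma serpins act on, were measured in the same hepatocyte-like barcodes. Of 14 measured genes of coagulation and fibrinolysis, 2 were at least 1.5-fold higher for flox/flox than for wt/wt and 0 were lower, against 14.3% and 7.61% of all genes, with a median log2 ratio of 0.13 against 0.08 over all genes. The count of higher genes is at that background. F2 (prothrombin, whose active form is the target of Serpinc1 and Serpind1) had 343, 324 and 340 CPM in order of genotype. Plg (plasminogen, whose active form Serpinf2 inhibits) had 601, 592 and 742. The genes that were higher were F9 (coagulation factor IX), with 0.71 (0.55 to 0.86), and Plgrkt (a plasminogen receptor), with 1.20 (0.40 to 2.06). Of 12 leukocyte serine proteases 1 was measured, Prtn3, with 19, 3 and 16 UMIs.

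Among 22 measured inhibitors of other families, 3 were higher for flox/flox than for wt/wt (Spint2, Spink1 and Slpi) and 0 were lower, with a median of 0.12. The share of higher genes is again near the 14.3% of all genes, and 7.61% of all genes were lower. Spink1, a Kazal-type trypsin inhibitor, had 2, 12 and 89 UMIs and a ratio of 4.82 (3.51 to 8.47), with the 2 UMIs set to the floor of 3. The abundant Ahsg (fetuin-A) had 3508, 2709 and 3743 CPM. Of 7 plasma carriers of hormones and vitamins, 2 were lower (Igfbp1, -0.70, and Igfbp2, -1.13) and 0 were higher, with a median of -0.20, where 7.61% of all genes were lower and 14.3% higher.

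Of 15 listed liver transcription factors and STAT5-related genes, 1 (Cish) was higher for flox/flox than for wt/wt and 4 were lower. Their median was -0.34, and 14.3% of all genes were higher and 7.61% lower. Action of these genes on serpin genes was not tested. Bcl6, a repressor that opposes STAT5, had 41.4, 31.1 and 10.1 CPM in order of genotype and a ratio of -2.04 (-2.40 to -1.69). Cish, which STAT5 switches on, had 2.27, 51.4 and 8.76 CPM and was highest for wt/flox, as was Socs2 with 17.5, 43.4 and 10.3. Of 14 interferon-induced genes, 14 were higher for flox/flox than for wt/wt, against 14.3% of all genes. Their median was 2.79, against 0.08 over all genes. The list was chosen with earlier results of these data known, so the count is no independent result.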

How the data were processed

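The authors deposited UMI counts per gene and barcode, written by Cell Ranger 6.1.1 per the file headers. The submitters' processing notes name the mm10 build and Seurat. Libraries hold 10000 barcodes each, with lowest depths of 727, 721 and 636 UMIs, and pairs share 20 to 32 barcode sequences. Barcodes with 500 UMIs, 250 genes and at most 40% mitochondrial UMIs were kept. They were clustered in 2 passes (scanpy 1.11.5, 2000 variable genes without Serpin genes, 30 components, 15 neighbours, Leiden resolution 1, 1 thread, fixed seed) and named where at least 3 markers of a class stood 4-fold above the rest in 5% of barcodes. These thresholds, and the pooling of T and NK clusters, were set after the data were seen. Clusters 17, 18 and 21 stayed unnamed (130 to 141 barcodes per library). No doublet caller was run.

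UMIs were summed per class and library as CPM, with exact Poisson, conditional binomial and Clopper-Pearson intervals at 95%. In ratios, counts under 3 were set to 3. Genes needed 20 UMIs. The interval code was tested on simulated data. Members and lists were chosen with earlier results of these data known. Values are given for members of at least 100 CPM, for those 1.5-fold apart in any pair and for others by role, and at most 4 genes of a list are named. Promoters come from RefSeq GRCm38.p6 and transcripts from GENCODE M21.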

Additional observations from a re-analysis of the deposited data

Results flagged for a closer look

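Serpinb9 had opposite directions in 2 classes. In conventional dendritic cell-like barcodes the log2 ratio of flox/flox over wt/wt was -2.53 (95% counting interval -4.03 to -1.12), on 12, 5 and 8 UMIs with the labels wt/wt, wt/flox and flox/flox. In hepatocyte-like barcodes it was 1.00 (0.57 to 1.45). The difference between the classes was not tested, and the library labelled wt/wt holds 57 dendritic cell-like barcodes.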

How the results depend on the processing

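No paired analysis was possible because each genotype has 1 library, and no library could be left out for the same reason. Another random seed of the clustering was added after seeing the data. Of 70 counts of members under another setting, 56 stayed within 1.5 times of the reported count. With at least 1000 UMIs per barcode, with at least 50 UMIs per member and with hepatocyte barcodes by markers alone, 23 members were measured. Of these, 1 in place of 2 was lower in flox/flox than in wt/flox, and 1 in place of 2 higher in wt/flox than in wt/wt. In the main setting the shares of all genes were 10.2% and 10.7%, and those of these settings are not given here. With at least 2000 UMIs, 9 members were higher in flox/flox than in wt/wt in place of 5, 5 were higher in wt/flox than in wt/wt in place of 2 and 7 were lower in place of 4, of 18 measured, where 28.2%, 21.7% and 15.7% of all genes were. The 2 members apart along the zonation score became 1, Serpina7, with at least 1000 UMIs, at most 20% mitochondrial UMIs, at least 50 UMIs per member, narrower outer groups of the score and the other seed. Of 183 values of a ratio that was at least 1.5-fold, 181 kept their direction and 174 stayed at least 1.5-fold. Under 1.5-fold were Serpine2 for flox/flox over wt/wt (-0.54, at least 1000 UMIs), Serpina3n for flox/flox over wt/flox (0.53 with at least 1000 UMIs, 0.55 with at most 20% mitochondrial UMIs, 0.58 with size factors), Serpinb9 for flox/flox over wt/wt (0.58, at least 2000 UMIs), Serpina7 for flox/flox over wt/flox (0.37, markers alone) and Serpinb8 for wt/flox over wt/wt (-0.50, at most 20% mitochondrial UMIs). Those that changed direction were Serpinb9 for flox/flox over wt/flox with at least 2000 UMIs (-0.13, on 21 UMIs) and Serpinb8 for wt/flox over wt/wt by markers alone (0.064, on 32 UMIs). Members under 20 UMIs in a setting were given no ratio there. Over the alternatives, flox/flox over wt/wt was -1.55 to -1.04 for Serpina1e, 0.59 to 1.34 for Serpina3k and 1.76 to 2.11 for Serpina12. Depth limits the members under 100 UMIs and the classes under 100 barcodes.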
